A study of Mus musculus with 2 samples.

Results

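The cells described here are cortical interneurons (cINs) of the medial ganglionic eminence (MGE) lineage that held transcripts of the transcription factor genes *Maf* or *Mef2c*, referred to below as *Maf*/*Mef2c* cells. They were chosen from measured counts: a cell needed at least 1 unique molecular identifier (UMI, a count of 1 captured RNA molecule) of *Lhx6*, 1 of *Gad1* or *Gad2* and 1 of *Maf* or *Mef2c*, none of *Nkx2-1*, *Lhx8*, *Neurod6*, *Mki67* or *Top2a*, and at most 1 of *Sst*. Of 16213 barcodes with 1500 to 60000 UMIs and under 10% mitochondrial UMIs, 510 met this rule, 210 of 5966 (3.52%) in replicate 1 and 300 of 10247 (2.93%) in replicate 2, or 3.22% ± 0.42 (SD, n = 2). Before these limits the libraries held 22605 barcodes.

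The cells came from single-cell RNA sequencing of dissociated cerebral cortex at embryonic day 16.5, from 2 libraries of EomesDot control embryos whose genotype is labelled WT. The labels name no Cre, deletion or treatment in these samples and give neither sex nor strain, and they do not say whether a library holds 1 embryo or several, so the spread between the libraries may be partly technical. Both libraries form a single group, and the comparisons below therefore lie between sets of cells of the same libraries. The tissue was the whole dissociated cortex with no sort for interneurons. Replicate 1 held 46398156 UMIs and replicate 2 held 64324236 UMIs, and the *Maf*/*Mef2c* cells had a median of 3218 and 3652 UMIs, below the medians of all cells within the limits (5706 and 4938).

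The MGE is a ventral zone of the embryonic forebrain whose neurons migrate tangentially into the cortex and become the parvalbumin and somatostatin (SST) classes of inhibitory interneuron. *Lhx6* is switched on as these neurons leave the MGE and is kept in the cortex, while *Nkx2-1* is lost in those bound for the cortex and kept in ventral neurons. *Maf* and *Mef2c* encode transcription factors of maturing MGE interneurons, and *Mef2c* is also used by excitatory neurons, microglia and endothelial cells. ERBB4 is the neuregulin receptor of tangentially migrating interneurons, and Reelin is a secreted protein made by Cajal-Retzius cells and by several interneuron types.

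The genes of the rule are given as a description and were not tested. In GRCm38 coordinates *Lhx6* lies on chromosome 2 (36081950 to 36105992), *Maf* on chromosome 8 (115703253 to 115706894) and *Mef2c* on chromosome 13 (83504017 to 83667079). Levels are UMIs of a gene summed over the cells of a set and scaled to 1000000 UMIs of that set (CPM). They compare a gene between sets, not one gene with another. *Lhx6* stood at 416 CPM in replicate 1 and 392 CPM in replicate 2, *Maf* at 711 CPM in each library, and *Mef2c* at 1099 and 1312 CPM. In excitatory neurons, defined by at least 2 *Neurod6* UMIs and no *Gad1*, *Gad2* or *Lhx6*, *Maf* was at 5.60 and 6.89 CPM but *Mef2c* at 740 and 921 CPM, with a *Mef2c* UMI in 64.4% and 64.2% of those cells against 86.7% and 92.0% of *Maf*/*Mef2c* cells. A median cell held 1 *Lhx6* UMI in either library, 2 *Maf* UMIs in either library, and 3 and 4 *Mef2c* UMIs.

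Most MGE-lineage cells without ventral markers held *Maf* or *Mef2c*. Of the cells that met the *Lhx6* and *Gad* limits and lacked *Nkx2-1*, *Lhx8*, *Neurod6* and cycle genes, whatever their *Sst*, 237 of 260 (91.2%) in replicate 1 and 339 of 365 (92.9%) in replicate 2 had *Maf* or *Mef2c*. The share was 52.7% and 55.2% in *Lhx6* cells that kept *Nkx2-1* or *Lhx8*, and 71.2% and 49.2% in cells typed as coming from the caudal ganglionic eminence (CGE), the other main source of cINs. *Maf* and *Mef2c* were found together in 148 and 227 of the cells, *Mef2c* without *Maf* in 34 and 49, and *Maf* without *Mef2c* in 28 and 24.

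**Figure D1:**
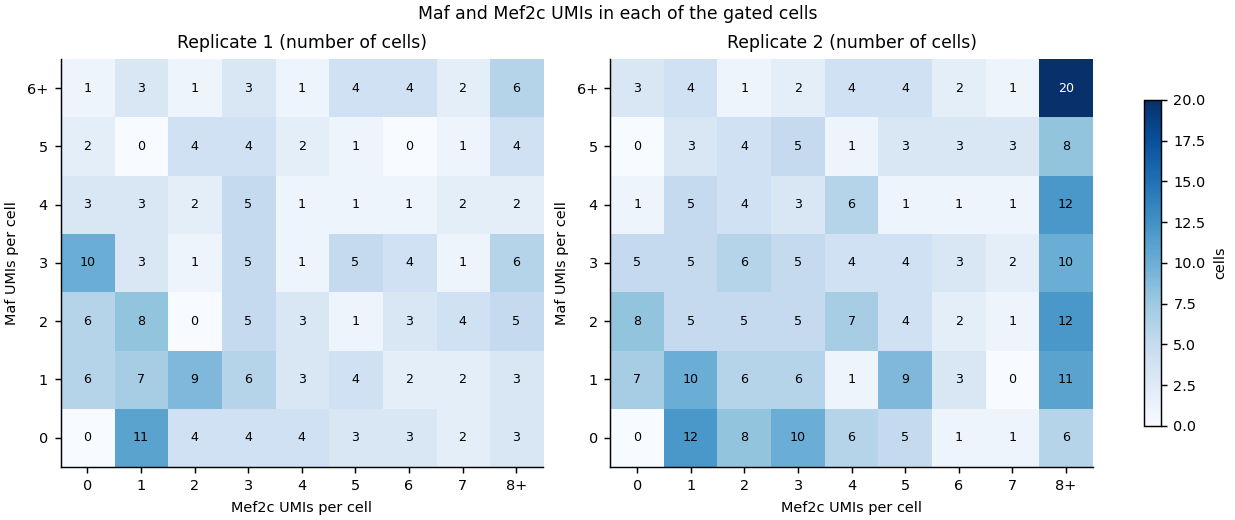
Number of *Maf*/*Mef2c* cells at each combination of *Maf* UMIs (vertical axis, 6 and more pooled) and *Mef2c* UMIs (horizontal axis, 8 and more pooled), one panel per library. Cells with 6 or more *Maf* and 8 or more *Mef2c* UMIs number 6 in replicate 1 and 20 in replicate 2, and the cell with neither is empty by the rule.

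The limits cut through low counts. Exactly 1 UMI of *Maf* and *Mef2c* together was held by 17 and 19 of the *Maf*/*Mef2c* cells, and exactly 1 *Lhx6* UMI by 118 and 176. One *Sst* UMI was held by 30 and 25 cells inside the limit, and 9 and 10 cells with 2 *Sst* UMIs lay just outside it. Just outside on the other limits lay 19 and 12 cells with a single UMI of *Nkx2-1* or *Lhx8*, and 43 and 73 cells with a single *Neurod6* UMI. Among cells with 2 or more *Neurod6* UMIs, which should lack *Lhx6* and *Gad*, 47 of 2530 (1.86%) and 70 of 4230 (1.66%) passed all of the positive limits, at median depths of 7560 and 6322 UMIs. Free RNA and droplets with 2 cells cannot be told apart in this share.

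The name of the cells was checked against the 5 marker genes that came with it, of which 3 belong to the rule. *Erbb4* (chromosome 1, 68031884 to 69108576) was at 10610 and 10200 CPM, with a median of 33 UMIs per cell in either library and a UMI in 98.1% and 99.3% of the cells. In excitatory neurons the share was 6.4% and 6.49% at median depths of 7461 and 6210 UMIs. *Reln* (chromosome 5, 21884454 to 22344705) was at 133 and 154 CPM, but in few cells: 36 of 210 (17.1%) and 49 of 300 (16.3%) held a UMI, against 5.85% and 4.47% of excitatory neurons. *Erbb4* thus marked nearly every cell and *Reln* a minority. Of 18 genes listed for SST-type cells and neuropeptides, *Npy*, the neuropeptide Y gene, was found in 75 and 90 cells (446 and 249 CPM), 14 and 16 of which also held *Reln*. *Pvalb*, the gene of adult parvalbumin cells, had no UMI in either library.

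Of genes of MGE or GABAergic neurons that the rule did not use, 3 are given here as a check of the label. *Sox6*, which acts downstream of *Lhx6* in MGE neurons, was found in 86.2% and 84.0% of the cells against 19.0% and 16.1% of excitatory neurons, and *Nxph1*, which encodes a secreted neurexin ligand, in 89.5% and 93.0% against 2.88% and 2.61%. *Dlx1*, a general regulator of GABAergic neurons, was found in 64.3% and 51.7% of the cells against 3.29% and 4.24%. Other regulators of MGE neurons were found in fewer cells, such as *Etv1* in 13.8% and 20.3% and *Npas1* in 9.52% and 11.7%.

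**Figure D2:**
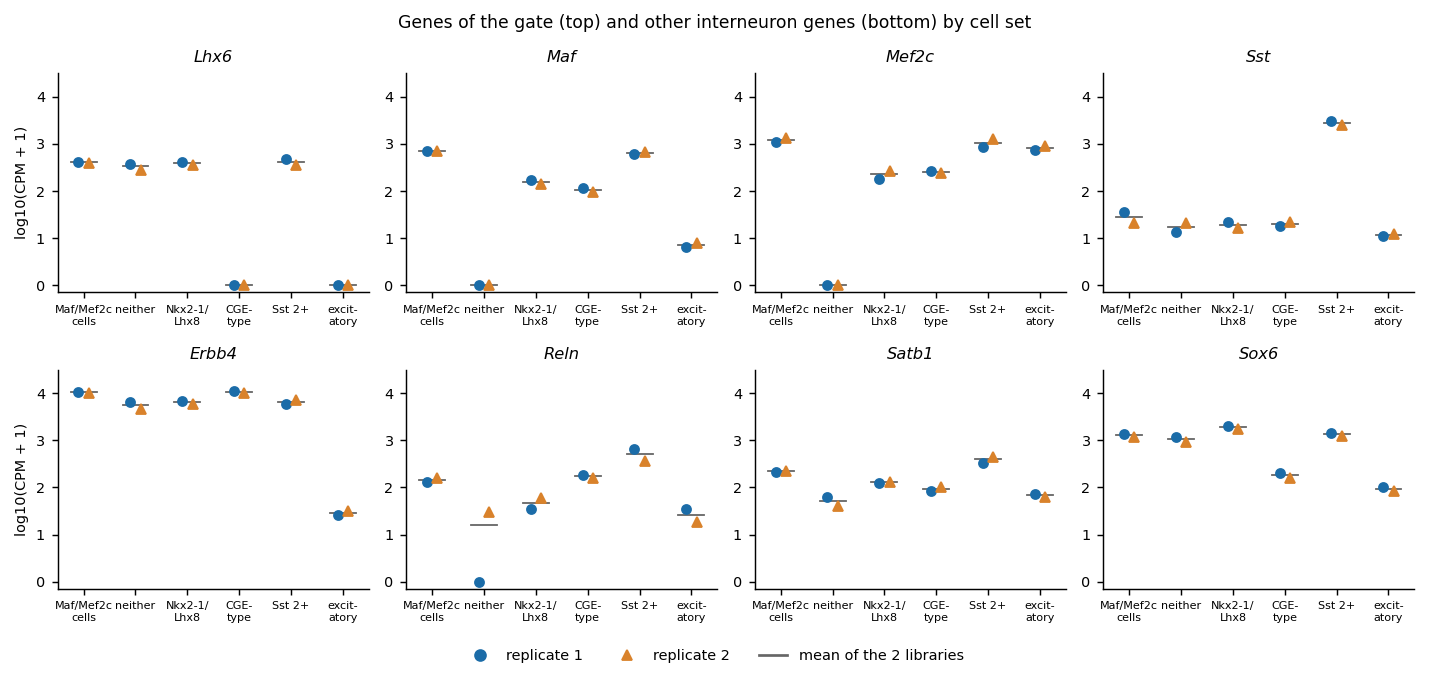
Level of 8 genes as log10(CPM + 1) in *Maf*/*Mef2c* cells, in the 4 sets of interneurons they are compared with and in excitatory neurons. Circles are replicate 1, triangles replicate 2 and lines the mean of both. The 4 genes in the upper row were used to define the sets. *Erbb4* is high in every interneuron set and *Sox6* is low in CGE-type cells.

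Other cell types were present at low levels among the cells. The 7 excitatory markers summed to 80.4 and 31.7 CPM against 2808 and 2841 CPM in excitatory neurons, with *Neurod6* at 0 by the rule. The 11 striatal neuron markers summed to 929 and 654 CPM, with *Drd1* and *Ppp1r1b* at 0 in either library. They summed to 2240 and 2042 CPM in excitatory neurons, so this sum is not particular to striatal neurons. The 6 CGE markers, with *Vip* at 0, summed to 345 and 413 CPM against 8055 and 7420 CPM in CGE-type cells. The 4 microglia markers summed to 137 and 30.1 CPM. The 5 Cajal-Retzius markers summed to 156 and 166 CPM, of which *Reln* gave 133 and 154, and *Lhx1* was at 0. Oligodendrocyte, endothelial, mural and fibroblast lists summed to 1.18 to 83.1 CPM. Globin counts were uneven: the median cell held 4 and 6 globin UMIs, as in the other sets (4 to 7), but the 5% of cells with most of them held 64.4% and 78.0% of all globin UMIs, and the summed level was 2956 and 6592 CPM. The median mitochondrial share of *Maf*/*Mef2c* cells was 6.78% in replicate 1, where the other sets had 4.57% (ventral), 5.36% (CGE-type), 5.73% (neither factor) and 7.23% (*Sst* 2+). It was 4.73% in replicate 2, above all 4 sets (3.68% to 4.28%). In replicate 1, 25.7% of *Maf*/*Mef2c* cells and 59.5% of ventral cells lay under 5%, and the part of this in the results was not tested beyond the limit of 5% tried as an alternative.

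To see where single cells decided a result, cells with at least 3 UMIs of 17 non-neural markers, at least 5 UMIs of *Meis2*, *Isl1*, *Ebf1* and *Six3* together, or at least 3 UMIs of the CGE gene *Adarb2* (not in CGE-type cells) were left out in an alternative chosen after seeing the data. This removed 23 of 210 and 31 of 300 *Maf*/*Mef2c* cells. Its values are given below for named genes whose call it ended or turned and for some that stayed called with another size, and a gene that fell below the count limit there was not tested. The 2 libraries shared 40 barcodes, none of them in a *Maf*/*Mef2c* cell.

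Genes other than those that defined the sets were tested on the summed counts of each set and library with edgeR's quasi-likelihood test, blocked on library, and Benjamini-Hochberg adjustment over all genes tested. A gene was called at an adjusted p-value under 0.05. Fold changes are log2 values of the first set over the second with the standard error (SE) of the fit, and n is 2 libraries throughout. The same summed counts of *Maf*/*Mef2c* cells enter 4 of the 5 comparisons.

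The first comparison asked what distinguished *Maf*/*Mef2c* cells from *Lhx6* cells that met the same limits but held neither gene, 19 in replicate 1 and 26 in replicate 2. The glutamate receptor genes *Gria1* and *Grm5*, the synaptic genes *Nxph2* and *Cntnap4* and the regulator gene *Npas3* were higher in the *Maf*/*Mef2c* cells, and *Gadd45g*, *Calb1* and *Nlgn1* were higher in the cells with neither. Of 8801 genes tested, 56 (0.636%) were called higher and 55 (0.625%) lower. Globin genes were called higher (3 of the 4 tested, and 1 by DESeq2 or without the cells that carried other markers), at 2956 and 6592 CPM against 1094 and 1695 CPM. The cells with neither factor were few, and 21 of the 45 carried markers of other types by the alternative above. Their striatal marker sum was 6277 and 1734 CPM, their CGE marker sum 893 and 1900 CPM, and their progenitor marker sum 780 and 460 CPM against 306 and 283 CPM in *Maf*/*Mef2c* cells, and the part of these cells in the calls was not tested beyond that alternative. In 28 of the 55 genes called lower, 1 cell held at least 50% of the set's UMIs of that gene in a library, as it did in 5 of the 56 called higher.

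Among 20 regulators of MGE interneurons, 5 were higher and 1 lower, with a median of 0.65 against 0.09 over all genes. *Npas3* stood at 1143 and 1237 CPM in *Maf*/*Mef2c* cells and at 352 and 745 CPM in the cells with neither (log2 fold change 1.20 ± 0.25, adjusted p = 0.0109). *Satb1*, a chromatin organizer needed for the maturation of SST interneurons, was at 214 and 227 CPM against 62.9 and 39.2 CPM (2.22 ± 0.39, adjusted p = 0.00263, and 0.0515 without the cells that carried other markers). *Zeb2*, which directs MGE neurons toward the cortex, was at 1908 and 1819 CPM against 755 and 774 CPM (1.35 ± 0.24, adjusted p = 0.00283, and 0.143 without those cells). *Tcf4* and *Sp9* were also higher and *St18* was lower, and without those cells the adjusted p-values of these 3 were 0.364, 0.678 and 0.143. Of the 5 higher regulators, *Npas3* was the one that stayed called (adjusted p = 0.0425).

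Receptors split in both directions, with 3 of 23 tested guidance genes higher and 3 lower. *Erbb4* was at 10610 and 10200 CPM in *Maf*/*Mef2c* cells and at 6529 and 4692 CPM in cells with neither (0.97 ± 0.22, adjusted p = 0.0208). Without the cells that carried other markers this became 0.44 ± 0.32 (adjusted p = 0.722). *Ackr3*, a scavenging receptor for the chemokine CXCL12 (chromosome 1, 90203980 to 90215724), was at 325 and 239 CPM against 75.5 and 78.4 CPM (1.91 ± 0.37, adjusted p = 0.00642), and *Epha5* at 3848 and 3625 CPM against 2013 and 1068 CPM (1.38 ± 0.24, adjusted p = 0.00241). Neither stayed called without those cells (adjusted p = 0.352 and 0.192). *Cxcr4*, the signalling CXCL12 receptor, was found in 22 and 45 *Maf*/*Mef2c* cells and in none of the 45 with neither. With 3 UMIs over the set as the floor, this gives a bound of 2.27-fold, which covers counting error only. The edgeR fit did not call the gene (adjusted p = 0.122). The lower receptors, *Robo1*, *Dcc* and *Ephb1*, lost their calls without the cells that carried other markers (adjusted p = 0.842, 0.456 and 0.920), and the *Ephb1* value turned from -2.46 to 3.51 ± 4.64.

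Among the glutamate receptor genes, *Gria1* and *Grm5* held their calls in that alternative. *Gria1*, encoding an AMPA receptor subunit (chromosome 11, 57011571 to 57330244), was at 1826 and 2156 CPM against 604 and 225 CPM (2.39 ± 0.29, adjusted p = 5.49e-05). *Grm5*, a metabotropic glutamate receptor, was at 396 and 536 CPM against 101 and 235 CPM (1.56 ± 0.29, adjusted p = 0.00571). Both stayed called without the cells that carried other markers, at 1.97 ± 0.39 and 2.21 ± 0.44 (adjusted p = 0.00557 for each). *Gria4* and *Grik1* were also called, and lost it there (adjusted p = 0.261 and 0.213). In all, 4 of 12 tested glutamate receptor genes were higher and none lower, with a median of 1.20, or 0.54 with the genes that have no UMI in the smaller set held at their floor.

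*Nxph2*, a neurexophilin that binds neurexins (chromosome 2, 23321246 to 23401986), was found in 47 and 92 *Maf*/*Mef2c* cells and in none of the 45 cells with neither. Its level was 105 and 159 CPM, at least 8.32-fold above the other set (adjusted p = 0.000816, and 0.00755 without the cells that carried other markers). *Cntnap4*, a neurexin-family protein of interneuron synapses, was at 356 and 334 CPM against 88.1 and 137 CPM (1.68 ± 0.32, adjusted p = 0.00642, and 2.81 ± 0.50, adjusted p = 0.00218, without them). *Nlgn1*, a postsynaptic neurexin partner, lay the other way at 525 and 264 CPM against 1120 and 686 CPM (-1.14 ± 0.26, adjusted p = 0.0256). Of 16 tested synaptic organizers 3 were higher and 1 lower.

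By size the leading genes were *Nxph2*, *Shisa6*, *Apod*, *Dgkg*, *Gabrg3*, *Reln*, *Dlgap2*, *Ptchd4*, *Rph3a* and *Dpp10*. *Dlgap2*, a postsynaptic scaffold gene, was at 1363 and 1581 CPM against 164 and 225 CPM and was found in 172 and 258 cells (2.97 ± 0.30, adjusted p = 4.46e-06). *Dpp10*, an auxiliary subunit of A-type potassium channels, was at 839 and 967 CPM against 226 and 78.4 CPM (2.71 ± 0.32, adjusted p = 3.88e-05). *Reln* had 307 UMIs against 3, a ratio of 8.81 (95% exact interval for counting error 2.99 to 43.0). *Gabrg3*, a GABA-A receptor subunit, had 505 UMIs against 3, a ratio of 14.5 (4.93 to 70.5). *Apod* is listed with them, but 31 of its 32 UMIs in replicate 1 came from 1 cell. Of the other genes, *Shisa6*, *Dgkg* and *Rph3a* were no longer called without the cells that carried other markers (adjusted p = 0.260, 0.102 and 0.143).

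The genes higher in cells with neither factor rested on few cells. All 17 UMIs of the proneural gene *Neurog2* in replicate 1 and 13 of 17 in replicate 2 lay in 1 cell each, and 178 of 228 *Nrg1* UMIs of replicate 1 lay in 1 cell. *Gadd45g*, a growth arrest gene, was found in 4 and 7 of those cells, at 214 and 147 CPM against 15.4 and 16.6 CPM (-3.38 ± 0.43, adjusted p = 6.35e-05, and 0.00557 without the cells that carried other markers). *March3* and *Nrg1* also stayed called (-2.67 became -3.92 ± 0.71, and -2.53 became -1.66 ± 0.40), and *Calb1*, the calbindin gene, was at 82.8 and 64.9 CPM against 277 and 186 CPM (-1.56 ± 0.33, adjusted p = 0.0142, and -2.20 ± 0.44, adjusted p = 0.00557, without them). *Zfhx3*, *Zfp804a* and *Rfx4* lost their calls there (adjusted p = 0.551, 0.562 and 0.873), and *Zfhx4* went from -2.96 to 0.06 ± 1.80. The striatal markers *Foxp1* and *Foxp2* turned from -1.80 and -2.17 to 1.14 ± 0.65 and 1.29 ± 1.05. Of the genes named in this comparison, DESeq2 did not call *Apod*, *Calb1*, *Dgkg*, *Ephb1*, *Grik1*, *Nlgn1*, *Nrg1*, *Ptchd4*, *Reln*, *Rfx4*, *Rph3a*, *Shisa6*, *Sp9* or *St18* (adjusted p = 0.0537 to 0.720), all with the same direction.

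The second comparison set the *Maf*/*Mef2c* cells against 74 and 58 *Lhx6* cells that kept *Nkx2-1* or *Lhx8*, which mark ventral MGE neurons. *Gria1*, *Grm5*, *Grik1*, *Npas3*, *Zeb2* and the CXCL12 receptors were higher in the *Maf*/*Mef2c* cells, and *Robo1*, *Dcc*, *Epha4* and *Efna5* were lower. Of 8801 genes, 163 (1.85%) were called higher and 153 (1.74%) lower. In 4 of the former and 21 of the latter, 1 cell held at least 50% of the higher set's UMIs in a library. The cells with *Nkx2-1* or *Lhx8* were deeper, with medians of 5593 and 4917 UMIs. They also held CGE markers at 1317 and 1156 CPM, with at least 3 *Adarb2* UMIs in 22 and 11 cells, against 345 and 413 CPM in the *Maf*/*Mef2c* cells. The microglia gene *C1qa* was among the genes called higher, at 40.2 and 7.92 CPM against 0 in either library. It was not called by DESeq2 (adjusted p = 0.899) and was not tested without the cells that carried other markers. Striatal markers summed to 929 and 654 CPM against 453 and 420 CPM in the ventral cells, and 1 of the 4 tested, *Foxp2*, was called higher (2.18 ± 0.47, adjusted p = 0.00619) but not without those cells (1.78 ± 0.60, adjusted p = 0.0808). Globin genes summed to 2956 and 6592 CPM against 3378 and 1788 CPM, in opposite order in the 2 libraries. Of the 4 tested, *Hbb-bt* was called higher with those cells and without them (1.40 ± 0.30 and 1.31 ± 0.31, adjusted p = 0.00559 and 0.00515). DESeq2 called neither gene (adjusted p = 0.129 for *Foxp2* and 0.149 for *Hbb-bt*).

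Of 20 regulators 5 were higher and 3 lower here. *Npas3* was at 1143 and 1237 CPM against 286 and 317 CPM (1.96 ± 0.23, adjusted p = 5.86e-06), and *Zeb2* at 1908 and 1819 CPM against 817 and 597 CPM (1.38 ± 0.22, adjusted p = 0.000256). Both genes were higher in each library. *Npas1* and *Nr2f1* were also higher (2.40 ± 0.57 and 1.19 ± 0.31, adjusted p = 0.0156 and 0.0268). *Etv1*, an ETS factor, was lower at 91.1 and 120 CPM against 272 and 314 CPM (-1.50 ± 0.23, adjusted p = 0.000157), as were *St18*, a factor of ventral MGE projection neurons (-1.82 ± 0.26, adjusted p = 7.56e-05), and the long noncoding RNA *Dlx6os1* (-0.71 ± 0.19, adjusted p = 0.0365). The regulators named here stayed called without the cells that carried other markers.

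Of 23 guidance receptors and ligands, 6 were higher and 6 lower. *Ackr3* was at 325 and 239 CPM against 109 and 71.5 CPM (1.62 ± 0.25, adjusted p = 0.000179), and *Cxcr4* at 31.9 and 41.2 CPM against 0 and 6.22 CPM. With 79 UMIs against 2, *Cxcr4* had a ratio of 14.0 (95% exact interval 3.74 to 117) and an adjusted p of 0.0047. In the Eph and ephrin family, *Epha5* was at 3848 and 3625 CPM against 1374 and 1160 CPM (1.54 ± 0.23, adjusted p = 0.00013) and the ephrin gene *Efnb2* at 168 and 213 CPM against 66.1 and 59.1 CPM (1.55 ± 0.27, adjusted p = 0.000666), while *Epha3* was higher by 0.999 ± 0.23 (adjusted p = 0.0117). *Epha4* lay the other way at 373 and 226 CPM against 869 and 473 CPM (-1.17 ± 0.19, adjusted p = 0.0004), and the ephrin gene *Efna5* at 273 and 219 CPM against 574 and 451 CPM (-1.06 ± 0.22, adjusted p = 0.00364). Family members therefore differed in sign in the same comparison of summed counts.

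*Robo1*, a Slit receptor, was at 541 and 330 CPM against 1582 and 1626 CPM (-1.91 ± 0.24, adjusted p = 1.6e-05), and *Dcc*, a netrin receptor, at 606 and 545 CPM against 1620 and 1446 CPM (-1.44 ± 0.21, adjusted p = 0.00013). The netrin receptor gene *Unc5c* was higher (1.38 ± 0.38, adjusted p = 0.0404). *Nrp2*, a semaphorin receptor, was lower at 74.5 and 51.5 CPM against 165 and 128 CPM (-1.23 ± 0.25, adjusted p = 0.0033), but without the cells that carried other markers it was called in the opposite direction (1.83 ± 0.55, adjusted p = 0.0427). *Dab1*, an adaptor of the Reelin pathway, lost its call there and changed sign (-1.96 ± 0.29 to 0.33 ± 0.45). The directions of *Nrp2* and *Dab1* therefore depended on which cells were kept. Among the ligands, *Reln* was higher at 133 and 154 CPM against 33.1 and 59.1 CPM (1.67 ± 0.33, adjusted p = 0.00338), and *Nrg1*, a neuregulin gene, was lower at 272 and 249 CPM against 496 and 889 CPM (-1.47 ± 0.41, adjusted p = 0.0448). DESeq2 called neither (adjusted p = 0.0900 and 0.9995). The differences of *Unc5c* and *Reln* grew to 3.25 ± 0.41 and 2.42 ± 0.40 without the cells that carried other markers.

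Among 12 glutamate receptor genes 5 were higher and 1 lower. *Gria1* was at 1826 and 2156 CPM against 335 and 302 CPM (2.63 ± 0.26, adjusted p = 1.14e-06), *Grm5* at 396 and 536 CPM against 63.7 and 134 CPM (2.27 ± 0.24, adjusted p = 2.3e-06) and *Grik1*, a kainate receptor subunit, at 312 and 285 CPM against 68.5 and 56.0 CPM (2.22 ± 0.24, adjusted p = 2.2e-06). *Grm5* and *Grik1* stood at 3.02 ± 0.32 and 3.14 ± 0.38 when the cells that carried other markers were left out. *Gria4* and *Grin2b* were higher by 0.90 ± 0.25 and 1.05 ± 0.21 (adjusted p = 0.0404 and 0.00363). *Grin3a* was lower (-2.70 ± 0.38) and lost its call when the cells that carried other markers were left out of both sets (0.54 ± 0.91, adjusted p = 0.842). Of 16 synaptic organizers, *Nxph2*, *Cntnap4* and *Il1rapl1* were higher and *Nlgn1* and *Cntnap5a* lower, the latter pair losing their calls without those cells (adjusted p = 0.252 and 0.744). *Kcnmb2*, which encodes a subunit of calcium-activated potassium channels, was at 360 and 477 CPM against 44.9 and 106 CPM (2.50 ± 0.28, adjusted p = 4.21e-06).

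By size *Mkx*, a homeobox gene, led: it was found in 17 and 37 *Maf*/*Mef2c* cells and in none of the 132 ventral cells, at least 11.4-fold higher. *Nxph2*, at 105 and 159 CPM against 9.44 and 9.33 CPM, *Dgkg*, *Cxcr4*, *Eif2ak4*, *Thbs1*, *Pde2a*, *Ptprt* and *Eya4* followed, with fitted values from 2.92 to 4.13, and *Apod* with 5.03 from few cells. *Ptprt*, a receptor phosphatase, was at 866 and 699 CPM against 73.2 and 121 CPM (3.0 ± 0.27, adjusted p = 3.29e-07). The lower genes were led by *Sfta3-ps*, the neighbour of *Nkx2-1*, at 17.7 and 23.8 CPM against 517 and 560 CPM (-4.73 ± 0.35, adjusted p = 8.6e-09), followed by *Serpine2*, *Cpne4*, *Pde1a*, *Crabp1*, *Cdh18*, *Gbx1*, *Zfp385b*, *Chchd10* and *Dpf3* (-4.61 to -2.98). *Pde1a*, a calcium-dependent phosphodiesterase gene, was at 27.2 and 18.2 CPM against 430 and 395 CPM. Its difference shrank from -4.21 ± 0.30 to -2.95 ± 0.38 without the cells that carried other markers, while *Crabp1*, *Dpf3* and *Eif2ak4* moved to -4.80 ± 0.59, -4.27 ± 0.75 and 4.01 ± 0.88. DESeq2 did not call *Apod*, *Cdh18*, *Chchd10*, *Crabp1*, *Cxcr4*, *Efna5*, *Eif2ak4*, *Epha3*, *Eya4*, *Gbx1*, *Gria4*, *Nlgn1*, *Npas1*, *Nr2f1*, *Nrp2*, *Pde2a*, *Serpine2*, *Thbs1* or *Unc5c* (adjusted p = 0.0572 to 0.412), all with the same direction. *Apod*, *Serpine2*, *Cpne4*, *Cdh18*, *Gbx1*, *Zfp385b* and *Chchd10* were below the count limit without the cells that carried other markers.

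**Figure D3:**
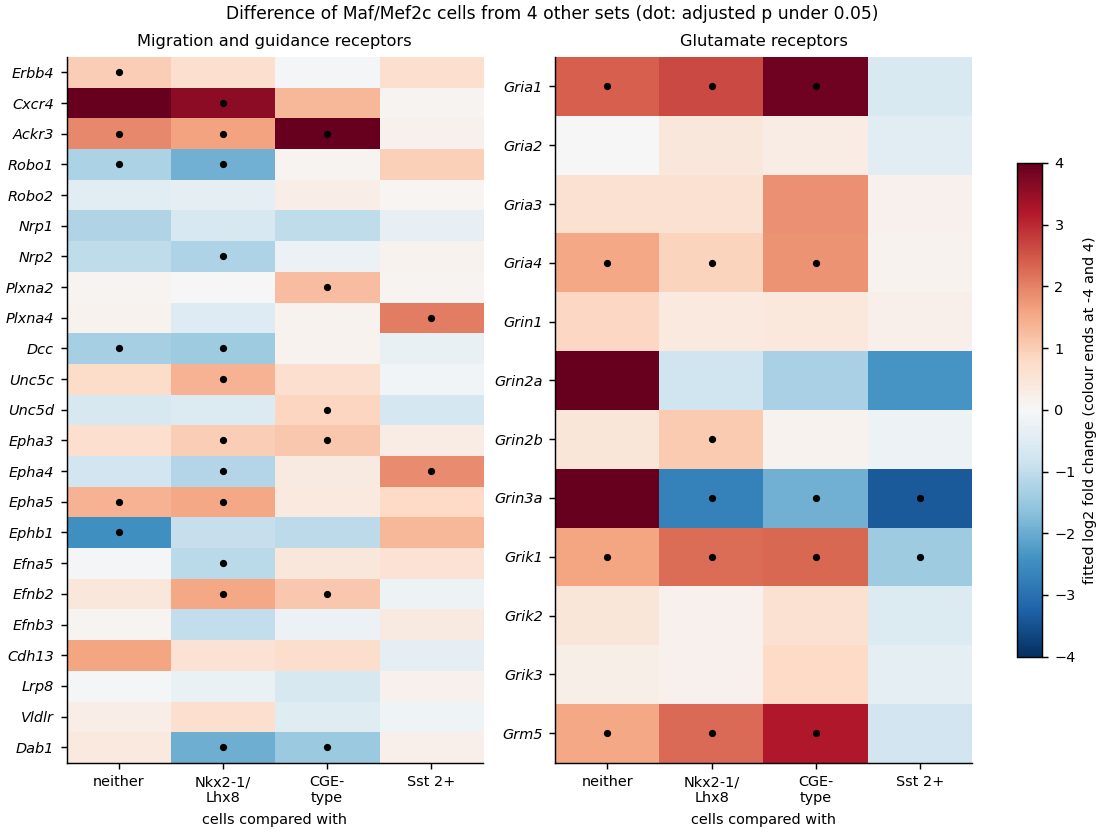
Fitted log2 fold change of *Maf*/*Mef2c* cells over each of 4 other sets for 23 guidance genes (left) and 12 glutamate receptor genes (right), red where higher in *Maf*/*Mef2c* cells and blue where lower, with a dot at an adjusted p-value under 0.05. *Gria1*, *Gria4*, *Grik1* and *Grm5* have a dot in red in the first 3 columns. Dark squares without a dot for *Cxcr4*, *Grin2a* and *Grin3a* in the first column have no UMI in the cells with neither factor, so that their size is no bound.

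The third comparison was with 52 and 59 CGE-type cells, which lacked *Lhx6* and held *Nr2f2* and *Prox1* or *Htr3a*. *Sox6*, *Satb1*, *Etv1*, *Npy*, *Nxph1*, *Ackr3* and *Gria1* were higher in the *Maf*/*Mef2c* cells, *Cnr1*, *Sp8* and *Synpr* were lower, and *Erbb4* and *Reln* did not differ by the test. Of 8801 genes, 202 (2.3%) were called higher and 167 (1.9%) lower. In 13 of the former and 21 of the latter, 1 cell held at least 50% of the higher set's UMIs in a library. Globin genes were called higher (4 of the 4 tested, and 2 by DESeq2) with summed levels of 2956 and 6592 CPM against 773 and 2391 CPM, although the median cell held 4 globin UMIs in replicate 1 and 6 to 7 in replicate 2 in either set. Of the genes called higher, *Vtn* drew 94.7% and 79.3% of its UMIs from 1 cell of each library, and *Cped1* 50% and 55%. Striatal markers summed to 929 and 654 CPM against 280 and 205 CPM in CGE-type cells, and 2 of the 4 tested, *Isl1* and *Foxp2*, were called higher (adjusted p = 0.0192 and 0.0171). Without the cells that carried other markers *Foxp2* was not called (1.97 ± 0.49 became 0.82 ± 0.48, adjusted p = 0.522) and *Isl1* was not tested. The 3 endothelial markers summed to 23.7 and 44.3 CPM against 280 and 34.8 CPM, and *Cldn5*, at 16.6 and 27.7 CPM against 255 and 24.4 CPM, was called lower (-2.32 ± 0.51, adjusted p = 0.00573) but turned to 0.81 ± 0.81 without those cells (adjusted p = 0.794). The progenitor marker *Pax6* was lower (-2.50 ± 0.51, adjusted p = 0.00306) and stayed called (-3.95 ± 0.64, adjusted p = 3.09e-05). Fibroblast markers summed to 54.4 and 83.1 CPM against 10.5 and 6.96 CPM, with none of the 3 called and all 3 at an unadjusted p under 0.05. DESeq2 did not call *Isl1*, *Foxp2*, *Cldn5* or *Pax6* (adjusted p = 0.152, 0.225, 0.649 and 0.119 in the order named).

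Of 20 regulators 9 were higher and 4 lower, with a median of 0.38. *Sox6* was at 1351 and 1200 CPM against 206 and 157 CPM (2.78 ± 0.22, adjusted p = 1.69e-08), *Satb1* at 214 and 227 CPM against 83.9 and 101 CPM (1.22 ± 0.24, adjusted p = 0.00229) and *Etv1* at 91.1 and 120 CPM against 17.5 and 6.96 CPM (3.04 ± 0.43, adjusted p = 5.85e-05). *Bcl11b*, *Elmo1*, *Sp9*, *Zeb2* and *Bcl11a* were higher by 0.76 to 1.38, of which *Bcl11a* lost its call without the cells that carried other markers (0.76 ± 0.21 became 0.64 ± 0.24, adjusted p = 0.145). *Npas3* was lower here, at 1143 and 1237 CPM against 2038 and 2287 CPM (-0.89 ± 0.21, adjusted p = 0.0105), as were *Nr2f1* (-2.04 ± 0.23), *St18* (-2.05 ± 0.26) and *Dlx6os1* (-0.94 ± 0.19). For *Npas3* and *Nr2f1* the *Maf*/*Mef2c* cells thus lay between the ventral cells, which had less, and the CGE-type cells, which had more.

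Of the 12 genes on the CGE list, 6 were tested and 4 were lower. The *Maf*/*Mef2c* cells had *Adarb2*, a CGE-lineage gene (chromosome 13, 8202526 to 8768762), at 224 and 329 CPM against 6817 and 6153 CPM (-4.57 ± 0.49, adjusted p = 9.76e-07), and 7.14% and 8% of the cells held a UMI of it, below the 13.4% and 10.3% of the deeper excitatory neurons. Its level was above the 61.7 and 49.1 CPM of excitatory neurons, with all of its UMIs in 15 and 24 cells. *Cnr1*, the cannabinoid receptor gene, was at 27.2 and 24.5 CPM against 259 and 362 CPM (-3.61 ± 0.34, adjusted p = 1.09e-07), and *Sp8* and *Synpr* were lower by 3.38 and 3.55 on the log2 scale. *Npy* (chromosome 6, 49822710 to 49829507) was at 446 and 249 CPM against 38.5 and 24.4 CPM (3.39 ± 0.32, adjusted p = 1.09e-07), and *Nxph1* at 3048 and 3430 CPM against 315 and 97.5 CPM (4.02 ± 0.40, adjusted p = 3.49e-07). Of the SST-type list, *Calb1* and *Elfn1* were also higher and *Grin3a* and *Dscam* lower, with *Calb1* no longer called without the cells that carried other markers (1.37 ± 0.39 became 1.18 ± 0.45, adjusted p = 0.175).

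*Ackr3* was at 325 and 239 CPM against 28.0 and 3.48 CPM (4.12 ± 0.37, adjusted p = 7.53e-08), while *Cxcr4* did not pass the test (1.33 ± 0.56, adjusted p = 0.277). *Erbb4* stood at 10610 and 10200 CPM against 11250 and 10080 CPM, a difference of -0.07 ± 0.21 (adjusted p = 0.948), and *Reln* at 133 and 154 CPM against 182 and 160 CPM (-0.27 ± 0.28, adjusted p = 0.780). *Plxna2*, *Epha3*, *Efnb2* and *Unc5d* were higher by 0.85 to 1.22 and *Dab1* was lower (-1.49 ± 0.31, adjusted p = 0.00435), with *Unc5d* no longer called without the cells that carried other markers (adjusted p = 0.0918).

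*Gria1* was at 1826 and 2156 CPM against 136 and 129 CPM (3.88 ± 0.29, adjusted p = 8.24e-09). *Grm5* was at 396 and 536 CPM against 24.5 and 76.6 CPM (3.21 ± 0.29, adjusted p = 7.53e-08), and *Gria4* and *Grik1* were higher by 1.81 ± 0.26 and 2.29 ± 0.25. Of 16 tested genes of excitability, *Kcnmb2*, *Scn1a* and *Kcnc2*, which encode potassium and sodium channel subunits, were higher (2.51 ± 0.30, 2.67 ± 0.45 and 0.95 ± 0.22), and the calcium channel subunit genes *Cacna2d1* and *Cacna2d3* were lower (-3.21 ± 0.45 and -1.39 ± 0.27). By size the genes were led by *Nxph2*, with 290 UMIs against none in 111 CGE-type cells and thus at least 26.3-fold higher, and by *Mkx*, at least 8.79-fold higher. *Cntnap3*, *Scube1* and *Tshz3* followed, with 172, 144 and 250 UMIs against 1, 1 and 2. *Sntg2*, *Rfx4* and *Fsip1* had no UMI in CGE-type cells. The lower genes were *Adarb2*, *Nr3c2*, *Kctd16*, *Dpf3*, *Prox1os*, *Cnr1*, *Kcnq5*, *Parm1*, *Synpr* and *Adamts3* (-4.57 to -3.44). *Prox1os* overlaps in position with *Prox1*, a gene that defined CGE-type cells, so its difference may partly restate that rule. With the cells that carried other markers left out, *Adamts3*, *Dpf3*, *Dscam*, *Nr3c2*, *Prox1os*, *Sp8* and *Synpr* lay further down (-5.33 to -4.09), as did *Adarb2* (-9.97), whose UMIs set that limit in the *Maf*/*Mef2c* cells. DESeq2 did not call *Adarb2* (-4.53, adjusted p = 0.226), nor *Bcl11a*, *Cacna2d3*, *Calb1*, *Cped1*, *Dab1*, *Efnb2*, *Elfn1*, *Fsip1*, *Grin3a*, *Kcnc2*, *Rfx4*, *Scube1*, *Sntg2*, *Sp9*, *Unc5d*, *Vtn* or *Zeb2* (adjusted p = 0.0504 to 0.9999), all with the same direction.

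**Figure D4:**
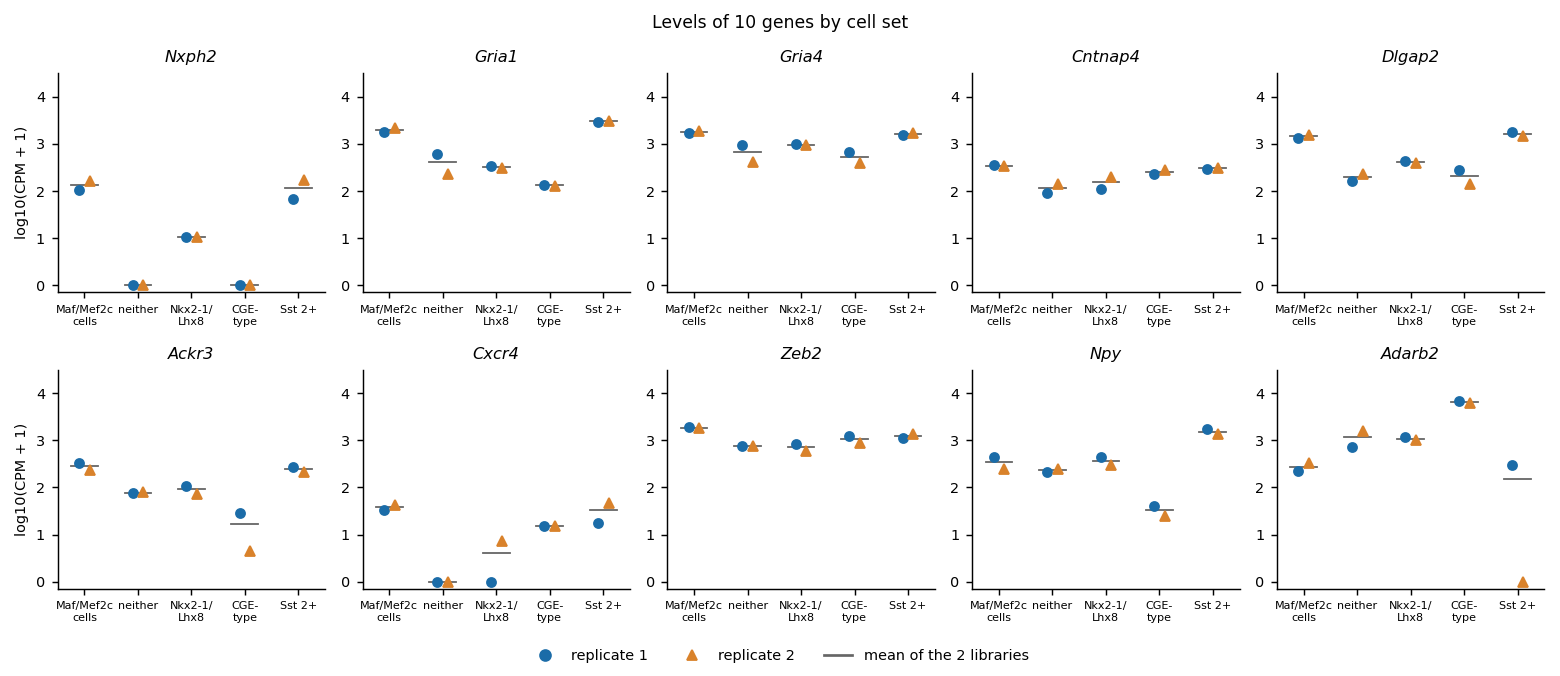
Level of 10 genes as log10(CPM + 1) in *Maf*/*Mef2c* cells and in the 4 sets of interneurons they are compared with. Circles are replicate 1, triangles replicate 2 and lines the mean of both. *Nxph2* lies at 0 in cells with neither factor and in CGE-type cells, *Gria1* is highest in *Maf*/*Mef2c* and *Sst* 2+ cells, and *Npy* is highest in *Sst* 2+ cells.

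The fourth comparison was with 27 and 39 cells that met every limit but held at least 2 *Sst* UMIs, the gene of the peptide that names SST interneurons. Of 8801 genes, 30 (0.341%) were called higher in *Maf*/*Mef2c* cells and 42 (0.477%) lower. In 7 of the former and 4 of the latter, 1 cell held at least 50% of the higher set's UMIs in a library. *Npy*, *Reln*, *Sema3a* and *Grin3a* were lower in the *Maf*/*Mef2c* cells, and *Plxna4*, *Epha4* and *Sp9* were higher. *Sst*, which set the groups, was at 35.5 and 19.8 CPM against 3007 and 2465 CPM and was not tested.

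*Npy* was at 446 and 249 CPM against 1704 and 1342 CPM (-2.18 ± 0.21, adjusted p = 3.79e-06) and *Reln* at 133 and 154 CPM against 668 and 364 CPM (-1.78 ± 0.26, adjusted p = 0.000693). With *Grin3a* (-3.36 ± 0.42) and *Cdh9* (-2.87 ± 0.54) they made 4 of 9 tested genes of the SST-type list lower, none being higher. *Cdh9* was not called by DESeq2 (adjusted p = 0.172) and was not tested without the cells that carried other markers. *Sema3a*, a secreted guidance cue, was at 82.8 and 68.1 CPM against 359 and 228 CPM (-1.92 ± 0.33, adjusted p = 0.00303). *Sp9*, a factor of young interneurons, was at 234 and 186 CPM against 41.8 and 60.6 CPM (1.91 ± 0.32, adjusted p = 0.0028), and was the 1 regulator called of 20. *Satb1* stood at 214 and 227 CPM against 334 and 447 CPM without passing the test (-0.85 ± 0.21, adjusted p = 0.0617).

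*Plxna4*, a semaphorin co-receptor gene, was at 539 and 401 CPM against 125 and 97.9 CPM (2.06 ± 0.26, adjusted p = 0.000112), and *Epha4* at 373 and 226 CPM against 100 and 60.6 CPM (1.89 ± 0.29, adjusted p = 0.000983). *Grik1* was lower at 312 and 285 CPM against 802 and 774 CPM (-1.41 ± 0.19, adjusted p = 0.000212), and so was the potassium channel gene *Kcnd2* (-1.48 ± 0.33, adjusted p = 0.0244). *Gria1*, *Gria4*, *Nxph2*, *Ackr3* and *Cxcr4* did not pass the test here. Others of the lower genes by size were *Prkcq*, *Tafa1*, *Nebl*, *Grm7*, *Pcdh7* and *Neto1* (-3.88 to -2.08), where *Neto1*, an auxiliary subunit of kainate receptors, was at 270 and 221 CPM against 1153 and 927 CPM. The higher genes were *Apod*, *Sorcs3*, *Egfem1*, *Foxp2*, *Sparc*, *Tshz1*, *Mob3b*, *Apoe* and *Pbx3* beside *Plxna4*. The striatal marker *Foxp2* went from 5.21 ± 0.98 to 3.91 ± 1.0 without the cells that carried other markers and stayed called (adjusted p = 0.0371). With all cells kept, striatal markers summed to 929 and 654 CPM against 526 and 275 CPM. The 3 fibroblast markers summed to 54.4 and 83.1 CPM against 0 in either library of *Sst* 2+ cells, with none called and all 3 at an unadjusted p under 0.05, and the 4 microglia markers to 137 and 30.1 CPM against 16.7 and 28.0 CPM. None of these was above the count limit without the cells that carried other markers. *Sorcs3*, *Egfem1*, *Sparc* and *Apoe* lost their calls without the cells that carried other markers (adjusted p = 0.194, 0.790, 0.820 and 0.861), and globin genes were called higher (4 of 4, and 2 by DESeq2) at 2956 and 6592 CPM against 952 and 1487 CPM. DESeq2 did not call *Apod*, *Apoe*, *Egfem1*, *Foxp2*, *Kcnd2*, *Mob3b*, *Nebl*, *Pbx3*, *Pcdh7*, *Sema3a*, *Sorcs3*, *Sparc* or *Tshz1* (adjusted p = 0.0665 to 0.395), all with the same direction.

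The last comparison lay inside the *Maf*/*Mef2c* cells, between 34 and 49 cells with *Mef2c* and no *Maf* and 28 and 24 cells with *Maf* and no *Mef2c*. A count of 0 at these depths (medians of 2898 to 3712 UMIs) does not show that a factor was absent. *Adarb2*, *Dcc* and *Nrg3* were higher in the cells with *Mef2c* alone, and *Sox6*, *Npy* and *Plxna4* in those with *Maf* alone. Without the cells that carried other markers, *Sox6* and *Plxna4* lost their calls and *Adarb2* was not tested. Of 7509 genes, 17 (0.226%) were called higher with *Mef2c* alone and 8 (0.107%) lower. In 4 of the former and 3 of the latter, 1 cell held at least 50% of the higher set's UMIs in a library. With *Mef2c* alone the CGE marker sum was 932 and 1143 CPM and the striatal sum 1737 and 1512 CPM, against 127 and 143 CPM and 275 and 286 CPM with *Maf* alone. Cells that carried other markers made 12 of 34 and 12 of 49 of the former and 0 of 28 and 2 of 24 of the latter. The 3 fibroblast markers summed to 6.66 and 4.78 CPM with *Mef2c* alone and to 0 and 695 CPM with *Maf* alone. Globin genes summed to 1118 and 1459 CPM with *Mef2c* alone and 1742 and 4744 CPM with *Maf* alone, and 1 of the 4 tested, *Hbb-bs*, was among the 8 genes called lower (-1.40 ± 0.25, adjusted p = 0.0159). It was also called by DESeq2 (adjusted p = 0.000398) and without the cells that carried other markers (-1.40 ± 0.28, adjusted p = 0.00178).

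*Sox6* (chromosome 7, 115470872 to 116040776) was at 865 and 909 CPM with *Mef2c* alone, 1359 and 1171 CPM with both and 2070 and 2106 CPM with *Maf* alone (-1.26 ± 0.19 between the first and the last, adjusted p = 0.00671). *Npy* was at 280 and 201 CPM, 425 and 222 CPM, and 845 and 614 CPM in the same order (-1.62 ± 0.25, adjusted p = 0.00671). *Dcc* ran the other way at 1790 and 1196 CPM, 385 and 439 CPM, and 127 and 194 CPM (3.17 ± 0.31, adjusted p = 4.78e-05). In these 3 genes the cells with both factors lay between the others in each library. Without the cells that carried other markers *Npy* and *Dcc* stayed called with smaller differences (-1.29 ± 0.30 and 2.08 ± 0.33, adjusted p = 0.0194 and 1.29e-05), and *Sox6* did not (-0.89 ± 0.25, adjusted p = 0.102).

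*Adarb2* had 308 UMIs with *Mef2c* alone against 3 with *Maf* alone, a ratio of 55.0 (95% exact interval 18.6 to 268), and they came from 8 of 34 and 10 of 49 cells. Leaving out cells with 3 or more *Adarb2* UMIs takes these counts away, and the gene was then below the count limit and not tested. *Nrg3*, a neuregulin ligand of ERBB4, was at 1185 and 1301 CPM against 180 and 297 CPM (2.36 ± 0.25, adjusted p = 9.35e-05), and *Dab1* at 280 and 134 CPM against 10.6 and 30.7 CPM (3.22 ± 0.59, adjusted p = 0.018). *Cntnap2* was higher by 1.93 ± 0.33 (adjusted p = 0.0128). *Plxna4* was lower, at 639 and 364 CPM against 1162 and 1237 CPM (-1.33 ± 0.24, adjusted p = 0.0159), which became -1.06 ± 0.28 without the cells that carried other markers (adjusted p = 0.0611). Further genes by size were *Sgcz*, *Kcnip4*, *Asic2*, *Galntl6*, *Sorcs3*, *Foxp2* and *Klhl29* upward and *Dach1*, *Sh3rf3* and *Gpc6* downward. *Dach1* moved from -3.37 ± 0.53 to -5.71 ± 0.80 without those cells. Of the others, *Kcnip4*, *Asic2*, *Foxp2* and *Gpc6* lost their calls there (adjusted p = 0.791, 0.843, 0.791 and 0.444). *Galntl6* and *Kcnip4* had over 50% of their UMIs in 1 cell of each library. *Sorcs3* was not tested there. DESeq2 did not call *Asic2*, *Cntnap2*, *Dab1*, *Gpc6*, *Kcnip4*, *Klhl29* or *Sorcs3* (adjusted p = 0.0538 to 0.681), all with the same direction.

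**Figure D5:**
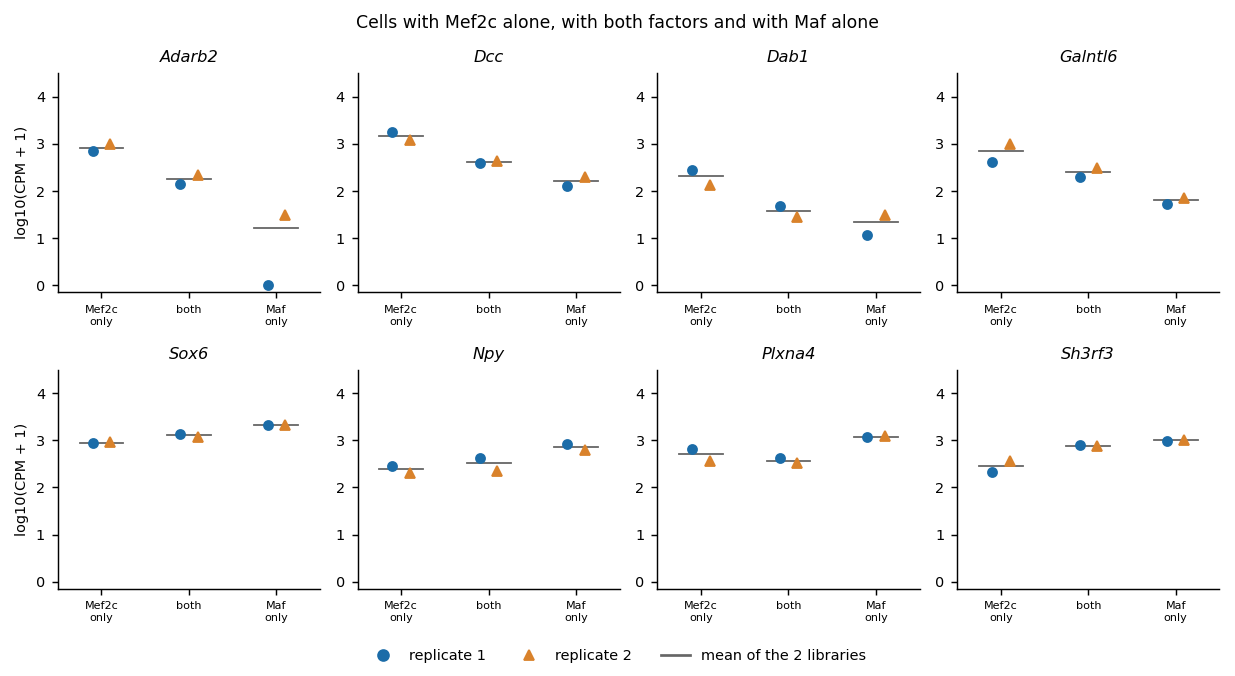
Level of 8 genes as log10(CPM + 1) in *Maf*/*Mef2c* cells with *Mef2c* alone, with both factors and with *Maf* alone. Circles are replicate 1, triangles replicate 2 and lines the mean of both. The upper 4 genes fall and *Sox6* rises from left to right in the means, with *Adarb2* at 0 in replicate 1 for *Maf* alone.

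Genes of DNA methylation and of immature neurons gave no call in any comparison. Of 9 tested genes of DNA methylation, none was called by edgeR in the 5 comparisons, with 0, 1, 1, 2 and 0 genes at an unadjusted p-value under 0.05 and none called by DESeq2. *Dnmt1*, the maintenance methyltransferase gene, was at 45.0 and 39.6 CPM and found in 16.2% and 14.7% of *Maf*/*Mef2c* cells, against 47.9 and 49.4 CPM and 30.6% and 26.9% of the deeper excitatory neurons, and *Dnmt3a*, a de novo methyltransferase gene, at 63.9 and 53.8 CPM. Of 10 genes of immature neurons, such as *Dcx* and *Sox11*, none was called by edgeR or DESeq2, with 3, 4, 2, 3 and 1 at an unadjusted p-value under 0.05. Among genes of GABA handling, *Slc32a1*, the vesicular GABA transporter, stood at 66.2 and 68.1 CPM and did not pass the test in any comparison. *Gabrg3* was higher than in ventral and CGE-type cells by edgeR (1.46 ± 0.36 and 1.80 ± 0.39, adjusted p = 0.0175 and 0.00569), but DESeq2 called it in neither comparison.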

How the data were processed

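Papain-dissociated cortical cells were barcoded with the 10x Genomics 3' v3.1 kit. The authors deposited unnormalized UMI counts per gene and barcode for 32285 genes in each of 2 libraries. Per the submitters' processing notes Cell Ranger 7.0.0 and the mm10 build were used, while the file headers name Cell Ranger 7.1.0. The annotation and the treatment of intronic reads are not given in the sources used here. Counting of introns would raise long genes. Positions come from RefSeq GRCm38.p6, matched by symbol for 295 of 296 genes.

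Doublets were not removed in the main analysis. Scrublet (scanpy 1.11.5) scores were used for an alternative that removed 432 and 1111 cells. Counts were summed per library and set, and edgeR 4.0.16 (R 4.3.3, TMM normalization, library block) was run on genes reaching 10 counts in 2 or more sums. The 5 sets of the first 4 comparisons entered 1 fit, and the 3 kinds of *Maf*/*Mef2c* cell another. The genes that defined a set were left out before adjustment. Replicate numbers name libraries; every set of a comparison comes from the same library, which is what the block encodes. DESeq2 1.42.0 was an alternative. Intervals of ratios and bounds (floor of 3 counts over a set) cover counting error only (scipy 1.17.1). The alternative without cells carrying other markers was chosen after seeing the data. The genes named by size were in each direction the 10 largest fold changes among called genes that had at least 20 CPM in the higher set in both libraries and the same direction in both libraries. Predicted, ribosomal protein, mitochondrial, globin, sex-linked and set-defining genes were left out of that choice, and members of the gene and marker lists could be named whatever they showed. The cells, lists and comparisons were chosen with earlier results of these data known, so no direction given here is independent evidence. Some genes of the lists are not reported here.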

Additional observations from a re-analysis of the deposited data

How the results depend on the processing

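The number of genes called depended on the settings. For *Maf*/*Mef2c* cells against cells with neither factor (111 called), it was 28 with cells under 5% mitochondrial UMIs, 65 with cells of 2000 to 5000 UMIs, 60 with DESeq2, 196 with no filter on low counts and 198 when only these 2 sets were fitted. Without the cells that carried other markers it was 38, of which 27 were among the main calls. Against ventral cells (316) these settings gave 106, 180 and 110 for the mitochondrial limit, the depth band and DESeq2, and 555 for 2 sets. Against CGE-type cells (369) they gave 148, 238, 165 and 641 in the same order, and against *Sst* 2+ cells (72) 14, 46, 20 and 154, with 148 without the filter. For *Mef2c* alone against *Maf* alone (25) the count was 57 with doublets removed, 10 under 5% mitochondrial UMIs, 2 in the depth band, 10 in cells thinned to 1500 UMIs, 82 with 2 UMIs in the limits, 15 with DESeq2, 88 without the filter and 96 in its own 2-set fit. With no replicate block 63, 235, 310, 42 and 23 genes were called in the 5 comparisons. The block is the library, from which both sets of a pair came. The share of *Maf*/*Mef2c* cells, 3.22%, was 2.55% under 5% mitochondrial UMIs and 2.70% with *Maf* required. Leaving out a library left no residual spread, so that only per-library ratios were computed. For the genes named by size these ratios kept their sign, since those genes were chosen for that. Other named genes were not chosen for it, and the *Cldn5* ratio to CGE-type cells differed in sign between the libraries. Without the cells that carried other markers, *Zfhx4* and *Ephb1* reversed, to 0.0619 and 3.51. In that alternative *Nrp2* was called in the opposite direction against ventral cells, and *Dab1* and *Grin3a* there, *Foxp1* and *Foxp2* against cells with neither factor and *Cldn5* against CGE-type cells changed sign without being called. Of 96 results for genes named by size (a gene counts once in each comparison), 45 were no longer called by DESeq2, and with cells under 5% mitochondrial UMIs 37 were no longer called, 38 were and the rest were not tested. With cells of 2000 to 5000 UMIs 34 were no longer called and 35 were. In cells thinned to 1500 UMIs 21 were no longer called and 44 were, and the rest were again not tested. The cause of these changes was not tested. Comparison sets of 19 to 74 cells per library limit the precision of all folds.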
